A study of Mus musculus with 16 samples.

Results

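The 10 genes described here encode proteins of the extracellular matrix of the brain, most of them parts of perineuronal nets. They are the link proteins Hapln1 and Hapln4, the lecticans Acan, Bcan, Ncan and Vcan, the tenascins Tnr and Tnc, the receptor phosphatase Ptprz1 and the testican Spock3. The genes were chosen from the names of net and matrix genes, with earlier results of these data in view, so their differences between groups are given as a description and are no independent test of a matrix effect. All 10 genes were found by symbol among the 24062 genes of the count table, and all 10 passed the filter on low counts that left 15592 genes over all mice.

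RNA was sequenced from the whole brain, with the cerebellum, of 16 female mice of the inbred C57BL/6J strain on postnatal day 45. Each of 4 groups held 4 mice, housed alone, and each mouse gave 1 library. WW mice drank water throughout. NW mice had 200 µg/ml nicotine in the bottles for 22 h a day and water in the daily drinking session. Water-Ethanol mice had water in the bottles and, from postnatal day 42, 20% v/v ethanol in sessions of 2 h that were lengthened to 4 h on the last of 4 days. NE mice had both nicotine and ethanol, and every group went through the same change of bottles. In a whole brain, fewer cells of a type and less RNA per cell cannot be told apart.

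A perineuronal net is a lattice of matrix that wraps the cell body and proximal dendrites of certain neurons, above all fast-spiking interneurons that carry parvalbumin. Its backbone is hyaluronan, a long sugar chain. Lecticans are chondroitin sulfate proteoglycans that bind hyaluronan, link proteins lock that bond, and tenascin-R ties lecticans together at their other end. Nets form as the brain matures after birth, through adolescence in some regions, and are known for limiting plasticity once they are in place.

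Total counts ran from 27100352 to 32880979 per mouse with a median of 29448284. The neuronal gene Snap25 was at 69002 to 83489 normalized counts, which are counts scaled to a common library size. The labelled tissue, whole brain with the cerebellum, was not matched equally by all mice. The cerebellar granule cell gene Gabra6 was at 1070 normalized counts in WW 21 and at 1655 in NW 10, against 3423 to 4487 in the other 14 mice. The summed FPKM, a level scaled for transcript length and depth, of 6 cerebellar genes was 86.3 in WW 21 and 131 in NW 10, against 293 to 343 in the others, so the label is in doubt for these 2 mice. They were also the lowest for Pvalb, the parvalbumin gene, with 1532 and 1745 normalized counts against 2595 to 3155 in the others. Values without them are given beside the calls they change. Brainstem and spinal cord genes were also lowest in them, with sums of 3.12 FPKM in WW 21 and 2.32 in NW 10. The summed FPKM of 5 olfactory bulb genes ran from 36.9 to 40.7 in WW, 26.1 to 38.6 in NW, 21.3 to 42.2 in Water-Ethanol and 23.3 to 40.2 in NE. Mice with little olfactory bulb RNA were thus found in the drug groups only, which bears on every comparison with WW.

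On the FPKM scale, which corrects for transcript length and so allows genes to be compared, Bcan was the most abundant of the 10 genes with 75.6 ± 5.11 (SD, n = 16 mice). Spock3 followed with 50.05 ± 5.47 FPKM, Hapln4 with 40.7 ± 2.26, Ptprz1 with 39.9 ± 2.55 and Ncan with 37.4 ± 2.82. Spock3 was above Hapln4 in 15 of 16 mice, Hapln4 above Ptprz1 in 10 and Ptprz1 above Ncan in 12, so the ranges of these neighbours overlapped. Tnr stood at 20.7 ± 1.30 FPKM, below Ncan and above Hapln1 in every mouse. Hapln1 reached 5.97 ± 0.729 FPKM and Vcan 4.04 ± 0.354. Tnc with 1.41 ± 0.302 FPKM and Acan with 1.26 ± 0.107 were the lowest, and Tnc was above Acan in 10 of 16 mice. The highest of the 10 genes was 59.9 times as abundant as the lowest. Raw counts behind these levels ran from 194 in the mouse lowest for Tnc to 11434 in the mouse highest for Ptprz1.

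**Figure D1:**
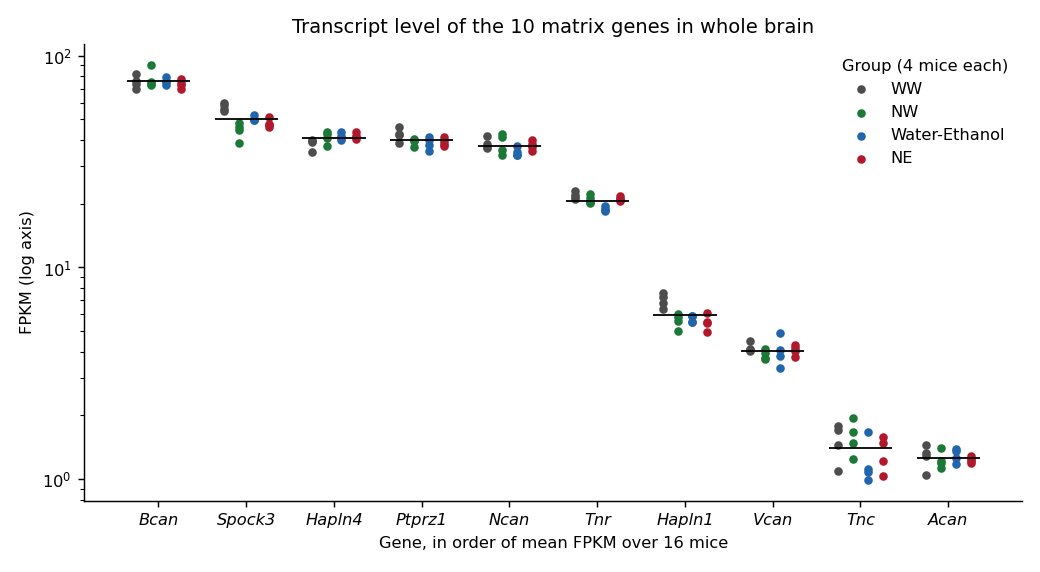
FPKM of the 10 genes on a log axis, with a point for each mouse, coloured by group, and a line at the mean of 16 mice. Bcan (75.6 FPKM) and Acan (1.26 FPKM) mark the ends of the range, and the groups lie close together beside the distance between genes.

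Among the lecticans, the core proteoglycans of the net, brevican (Bcan) made up 63.9% ± 1.61 (SD, n = 16) of the summed FPKM and neurocan (Ncan) 31.6% ± 1.59. Versican (Vcan) made up 3.42% ± 0.308. Aggrecan (Acan), the lectican that marks mature nets, made up 1.07% ± 0.120. The sum of the 4 lecticans was 119 ± 7.26 FPKM in WW, 117 ± 2.85 in NE, 122 ± 11.5 in NW and 116 ± 4.28 in Water-Ethanol mice (SD, n = 4 each), so the group means lay within the spread between mice. The share of Bcan was 62.2 to 63.6% in WW and 64.0 to 65.8% in Water-Ethanol mice, and that of Ncan was 31.9 to 32.9% and 29.1 to 31.7%. Neither share overlapped between these groups, a difference that was not tested, and how often such shares separate was not counted. Bcan and Ncan make up most of the same sum, so when the share of Bcan rises that of Ncan tends to fall. The shifts of both shares are thus not independent results. In NW the share of Bcan ran from 61.0 to 66.0% and in NE from 60.6 to 65.0%, both overlapping with WW.

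Link protein genes lie beside lectican genes. In the authors' count table (GRCm38), Hapln1 spans chr13:89540636-89611832 on the plus strand and Vcan chr13:89655310-89742512 on the minus strand, with 43477 bases between them. Hapln4 spans chr8:70083529-70090862 on the plus strand and Ncan chr8:70093085-70120844 on the minus strand, only 2222 bases apart. Bcan at chr3:87987531-88000356 lies 21393 bases from Hapln2, and Acan at chr7:79053483-79115099 lies 1927 bases from Hapln3, both link protein genes. No listed gene lies between the partners of any of the 4 pairs. Tnr spans chr1:159523769-159924922, Tnc chr4:63959785-64047015, Ptprz1 chr6:22875502-23052916 and Spock3 chr8:62951232-63357096. The exons of none of the 10 genes overlap those of another listed gene.

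Promoter sequence was at hand from RefSeq (GRCm38.p6) for 9 of the 10 genes, with 11 start sites. The 250 bases upstream of the start, 5′ to 3′ on the gene's strand, are shown for the 3 genes that passed the test in a comparison below (Hapln1, Tnr, Spock3) and for Bcan and Ptprz1, which did not. Capitals mark matches, on either strand, to GGGCGG, the core of the GC box. The windows are chr13:89540386-89540635 (Hapln1, plus), chr1:159523519-159523768 (Tnr, plus), chr8:62950982-62951231 (Spock3, plus, the upstream start), chr3:88000357-88000606 (Bcan, minus) and chr6:22875252-22875501 (Ptprz1, plus).
Hapln1: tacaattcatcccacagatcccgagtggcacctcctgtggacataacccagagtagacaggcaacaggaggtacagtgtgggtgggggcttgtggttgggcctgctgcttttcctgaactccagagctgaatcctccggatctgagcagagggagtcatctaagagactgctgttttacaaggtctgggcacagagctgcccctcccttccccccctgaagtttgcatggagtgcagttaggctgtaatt
Tnr: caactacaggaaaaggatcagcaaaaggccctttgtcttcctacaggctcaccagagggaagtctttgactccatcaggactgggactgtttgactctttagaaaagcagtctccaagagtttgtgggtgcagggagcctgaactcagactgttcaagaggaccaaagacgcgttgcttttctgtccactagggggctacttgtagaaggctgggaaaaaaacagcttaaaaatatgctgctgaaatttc
Spock3: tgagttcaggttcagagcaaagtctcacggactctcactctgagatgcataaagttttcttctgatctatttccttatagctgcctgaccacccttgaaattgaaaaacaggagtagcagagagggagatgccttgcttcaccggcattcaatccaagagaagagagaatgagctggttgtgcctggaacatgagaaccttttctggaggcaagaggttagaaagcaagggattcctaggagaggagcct
Bcan: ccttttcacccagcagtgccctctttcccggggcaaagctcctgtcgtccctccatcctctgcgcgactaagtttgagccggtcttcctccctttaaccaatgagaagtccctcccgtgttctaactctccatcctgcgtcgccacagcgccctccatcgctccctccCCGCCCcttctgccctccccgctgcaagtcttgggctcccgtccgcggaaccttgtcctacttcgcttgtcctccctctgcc
Ptprz1: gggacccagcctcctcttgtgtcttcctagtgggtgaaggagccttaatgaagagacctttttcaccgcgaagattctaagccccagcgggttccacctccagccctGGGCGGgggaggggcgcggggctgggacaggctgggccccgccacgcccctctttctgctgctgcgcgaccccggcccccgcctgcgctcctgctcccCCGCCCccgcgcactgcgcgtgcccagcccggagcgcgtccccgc

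GGGCGG was found in the windows of 6 of the 9 genes, Acan, Bcan, Ncan, Vcan, Tnc and Ptprz1, and in 32.7% of all 32851 promoter windows of the same length. Hapln1, Tnr and Spock3 had 0 matches. TATAAA was found for Ncan and Tnc, and in 12.4% of all windows. TGACG and CACGTG were found for 0 of the 9 genes and in 17.8% and 6.02% of all windows. These letters are a description of the windows and show no bound site. The GC content was 54.4% for Hapln1 and 46.8% for Tnr, beside a median of 52.4% over all windows. For Spock3 it was 46.4% at the upstream start and 56.4% at the other start.

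In Water-Ethanol against WW, the comparison of ethanol with water, Tnr and Hapln1 were lower in Water-Ethanol, and the other 8 genes did not pass the test. The expression of Tnr fell by 0.22 on the log2 scale (SE 0.0362, adjusted p = 0.0357) and that of Hapln1 fell by 0.30 (SE 0.0579, adjusted p = 0.0471), both in edgeR's quasi-likelihood test with Benjamini-Hochberg adjustment over 15323 genes. Thus 2 of 10 genes passed, where 0.457% of all genes did. Spock3 was just outside the threshold at -0.19 (SE 0.0399, adjusted p = 0.0553). With DESeq2 it passed as well (adjusted p = 0.00197), beside 3.94% of all genes, and so it did with edgeR's likelihood-ratio test (4.05%) and without a filter on low counts (0.719%). For Hapln1, Tnr and Spock3 every Water-Ethanol mouse lay below every WW mouse, a separation seen for 5.68% of all genes. The median difference of the 10 genes was -0.14, beside 0.00 for all genes. Leaving out WW 21 raised the number that passed to 4, with Ptprz1 and Spock3 added, while 5.17% of all genes then passed. Leaving out WW 18 left both genes past the threshold, beside 0.545% of all genes. Leaving out any of the other 6 mice gave 0, where 0 to 1 of all genes passed. With limma on log2(FPKM + 1), 0 of the 10 genes and 0 of all genes passed. In a quasi-likelihood fit of all 16 mice Tnr was at -0.23 (adjusted p = 0.0315) and Hapln1 at -0.31 (adjusted p = 0.0762). In that fit 0.180% of all genes passed. With scores of cerebellar and olfactory bulb markers added to it, Tnr was at -0.22 (adjusted p = 0.0599) and Hapln1 at -0.24 (adjusted p = 0.124). Of all genes, 0.0577% then passed.

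In NW against WW, the comparison of nicotine with water, no gene of the 10 passed the test, as was the case for all 15344 genes tested (0%). At an unadjusted p under 0.05 stood 2 of the 10 genes, Hapln1 and Spock3, beside 8.44% of all genes. Both were lower in every NW mouse than in every WW mouse, which held for 4.24% of all genes. The difference was -0.36 for Spock3 (SE 0.0663, adjusted p = 0.207) and -0.31 for Hapln1 (SE 0.0745, adjusted p = 0.251). With DESeq2, with edgeR's likelihood-ratio test and with a quasi-likelihood fit of all 16 mice both genes passed, as did 0.802%, 0.736% and 0.718% of all genes. Without WW 21 and NW 10, a choice made after the data were seen, 0 passed.

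In NE against WW, the comparison of both drugs with water, the expression of Spock3 fell by 0.26 on the log2 scale (SE 0.0434, adjusted p = 0.0403). It was the only 1 of the 10 genes to pass, beside 0.313% of 15313 genes. Hapln1 was at -0.35 (SE 0.0681, adjusted p = 0.0584). Every NE mouse lay below every WW mouse for Hapln1 and Spock3 (5.51% of all genes) and above for Hapln4 (5.22% of all genes), which was at 0.12 (SE 0.0468, adjusted p = 0.212). Hapln1 passed as well with DESeq2 (3.38% of all genes), with the likelihood-ratio test (2.45%) and without a filter on low counts (0.266%), and 0 of the 10 passed with limma on log2(FPKM + 1), where 0.195% of all genes did. In the fit of all 16 mice Hapln1 passed (adjusted p = 0.0401) and Spock3 did not (adjusted p = 0.0543). Leaving out WW 21 gave 2, Hapln1 and Spock3, where 283 of all genes (1.84%) passed, and leaving out any other mouse gave 0, where 0 to 11 of all genes passed. These 3 comparisons share the 4 WW mice, so a high or low value in WW enters all of them.

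**Figure D2:**
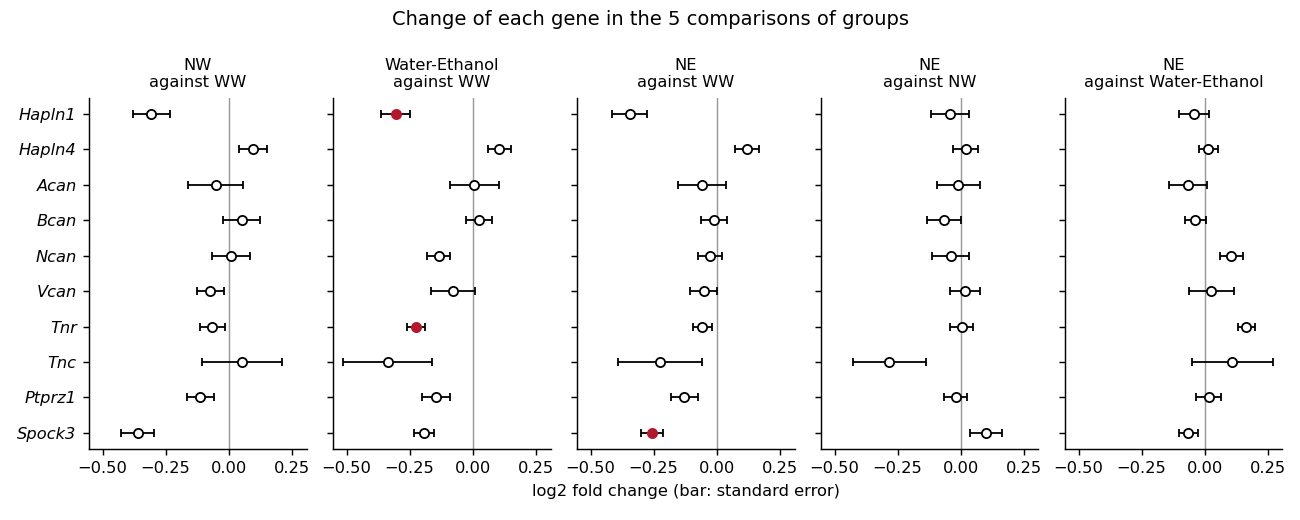
Log2 fold change of each gene in the 5 comparisons of groups, with the standard error as a bar. Filled points passed the test, which are Hapln1 (-0.30) and Tnr (-0.22) in Water-Ethanol against WW and Spock3 (-0.26) in NE against WW, and no gene passed in the panels on the right that leave WW out.

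Hapln1 encodes the link protein that stabilises the bond between lecticans and hyaluronan. In WW mice it was at 921, 991, 1055 and 1088 normalized counts. In NW mice it was at 721, 809, 892 and 855, in Water-Ethanol mice at 849, 845, 788 and 795, and in NE mice at 796, 801, 716 and 876. All 12 mice given a drug were thus below the lowest WW mouse, a joint pattern not counted over all genes. The same 4 WW mice enter each of these comparisons, and the 3 drug groups overlapped with each other. The means were 1014 ± 73.8 in WW, 797 ± 65.4 in NE, 819 ± 73.8 in NW and 819 ± 32.3 in Water-Ethanol mice (SD, n = 4 each). WW 21, low in cerebellar RNA, was the highest for Hapln1. Without it the difference was -0.27 in NW (adjusted p = 0.309), -0.27 in Water-Ethanol (adjusted p = 0.0237) and -0.31 in NE (adjusted p = 0.0422) in the same edgeR test.

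Tnr encodes tenascin-R, the glycoprotein that ties lecticans together and is made mainly by oligodendrocytes and some interneurons. WW mice were at 3680, 3606, 3400 and 3505 normalized counts. Water-Ethanol mice were at 3015, 2977, 3118 and 3018, the lowest 4 of all mice, a pattern not counted over all genes. NW mice were at 3334, 3302, 3661 and 3259, and NE mice at 3292, 3534, 3370 and 3426, so both groups overlapped with WW. The mean was 3548 ± 122 in WW and 3032 ± 60.4 in Water-Ethanol (SD, n = 4), a level 14.4% lower. In NW the difference from WW was -0.06 (SE 0.0493, adjusted p = 0.754) and in NE it was -0.06 (SE 0.0372, adjusted p = 0.461).

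Spock3 encodes testican-3, a secreted proteoglycan of neurons. It was at 5032, 5185, 4845 and 4664 normalized counts in WW. It was at 3301, 3963, 3905 and 4172 in NW, at 4241, 4465, 4226 and 4298 in Water-Ethanol, and at 4353, 4108, 3960 and 4076 in NE. Every drug mouse was below every WW mouse, a joint pattern not counted over all genes, and NW 7 was the lowest of all 16. The mean fell from 4931 ± 226 in WW to 4124 ± 165 in NE (SD, n = 4), 16.2% lower. Without WW 21, the difference in Water-Ethanol grew to -0.22 (adjusted p = 0.0119) and that in NE to -0.28 (adjusted p = 0.0243) in edgeR's test.

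**Figure D3:**
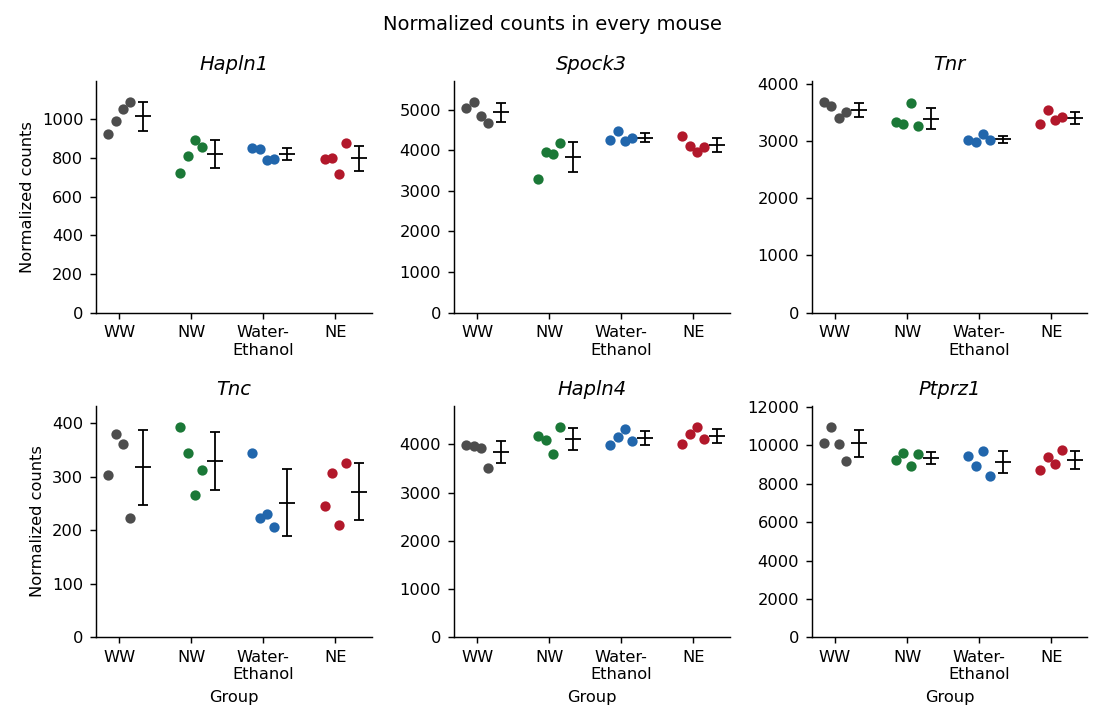
Normalized counts of 6 genes in every mouse, with a point per mouse and the mean ± SD of 4 mice beside each group, on axes that start at 0. WW mice lie above all other mice for Hapln1 and Spock3, and Water-Ethanol mice lie below all others for Tnr. How many of all genes separate in these ways was not counted. The groups overlap for Tnc and Ptprz1.

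The values of Spock3 and Hapln1, which are low in GC, moved under a correction for GC content. The longest transcript of Spock3 has a GC content of 37.3%, and only 1.3% of the genes tested have less. Hapln1, with 39.8%, has only 5.2% of genes below it, while Tnr with 47.7% is near the median of 49.8%. With the correction, made in each library, Spock3 moved to -0.21 in NW (adjusted p = 0.544), to -0.14 in Water-Ethanol (adjusted p = 0.0923) and to -0.17 in NE (adjusted p = 0.116). Hapln1 moved to -0.19 in NW (adjusted p = 0.886), to -0.26 in Water-Ethanol (adjusted p = 0.0871) and to -0.28 in NE (adjusted p = 0.177). Tnr kept its value in Water-Ethanol at -0.22 (adjusted p = 0.0468). Thus, of the calls above, that of Tnr in Water-Ethanol was the one still made under the correction, and all of these differences kept their sign. Of all genes, 0.255% passed under the correction in Water-Ethanol, beside 0.457% without it. In NE 0.0588% passed, beside 0.313% without it.

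**Figure D4:**
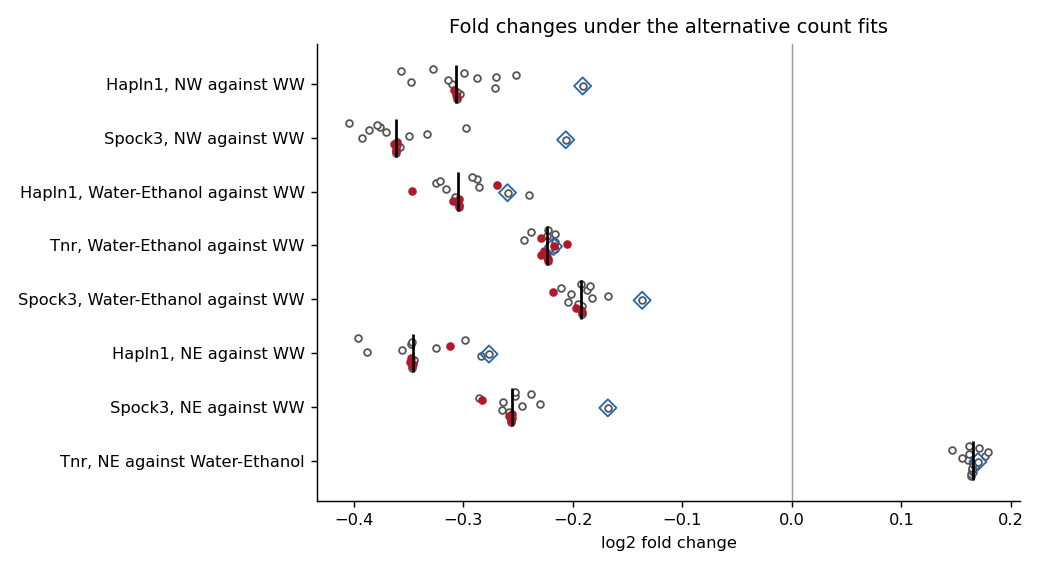
Log2 fold changes of Hapln1, Spock3 and Tnr under each alternative fit of the counts, with the main value as a bar, the GC correction as a diamond and filled points where the adjusted p was under 0.05. Every point of the 7 comparisons with WW lies below 0, the GC correction brings Spock3 in NW from -0.36 to -0.21, and Tnr in NE against Water-Ethanol stays above 0 with no filled point.

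Tnc encodes tenascin-C, a glycoprotein of the developing brain that remains in zones of neurogenesis and in some glia. It was the most variable of the genes, at 304, 380, 362 and 223 normalized counts in WW and 344, 223, 231 and 206 in Water-Ethanol. NW mice were at 393, 345, 265 and 313, and NE mice at 246, 306, 210 and 326. All groups overlapped, and the difference in Water-Ethanol was -0.34 (SE 0.177, adjusted p = 0.317). WW 21 was the lowest WW mouse for Tnc, and without it the difference in Water-Ethanol was -0.47 (adjusted p = 0.0758).

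Hapln4 encodes the brain link protein that is found on nets of the cerebellar nuclei and the brainstem. It was at 3979, 3962, 3928 and 3501 normalized counts in WW and at 4015, 4208, 4365 and 4116 in NE. Water-Ethanol mice were at 3976, 4145, 4316 and 4077, and NW mice at 4168, 4090, 3806 and 4364. The lowest values over all mice were those of WW 21 and NW 10, the mice low in cerebellar markers. In a fit of all 16 mice the difference from WW was 0.10 in Water-Ethanol and 0.12 in NE. With cerebellar and olfactory bulb marker scores added to that fit, it was 0.03 and 0.05.

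Ptprz1 encodes a receptor phosphatase whose secreted form is phosphacan, a proteoglycan that binds tenascin-R in nets. It was at 10143, 10970, 10080 and 9204 normalized counts in WW and at 9425, 8942, 9701 and 8391 in Water-Ethanol, with overlap. The difference was -0.11 in NW (adjusted p = 0.612), -0.15 in Water-Ethanol (adjusted p = 0.190) and -0.13 in NE (adjusted p = 0.247). Without WW 21 it passed the edgeR test in Water-Ethanol at -0.19 (adjusted p = 0.0463).

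None of the 4 lecticans passed the test against WW. Ncan came nearest, at -0.13 in Water-Ethanol (SE 0.0461, adjusted p = 0.149), with group means of 7850 ± 427 normalized counts in WW and 7138 ± 327 in Water-Ethanol (SD, n = 4). Bcan differed from WW by 0.05 in NW, by 0.03 in Water-Ethanol and by -0.01 in NE mice. Vcan differed by -0.07, -0.08 and -0.05 and Acan by -0.05, 0.01 and -0.06 in the same order. WW 21 was the lowest WW mouse for Acan, and without it Acan was at -0.13, -0.07 and -0.14, none past the test. Standard errors for Bcan, Vcan and Acan ran from 0.0512 for Bcan in Water-Ethanol to 0.107 for Acan in NW, so a difference of 0.1 lay within 2 standard errors for these genes.

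The remaining comparisons of groups leave WW out. Between NE and NW, which differ in ethanol, 0 of the 10 genes and 0% of 15361 genes passed, and 0 of the 10 had an unadjusted p under 0.05, beside 11.9% of all genes. Tnr was at 0.00 there (SE 0.0472, adjusted p = 0.981), and Hapln1 was at -0.04 (SE 0.0754, adjusted p = 0.852). NE and Water-Ethanol differ in nicotine. The study also reported more ethanol drunk in the last session, and higher blood ethanol, in NE mice. Nicotine and ethanol intake thus cannot be told apart in this comparison. Between these groups 0 of the 10 genes and 0% of 15319 genes passed in edgeR's test. An unadjusted p under 0.05 was reached by 2 of the 10 genes, Tnr and Ncan, beside 5.80% of all genes. Tnr was higher in every NE mouse than in every Water-Ethanol mouse, the only 1 of the 10 genes to separate in that direction, beside 1.97% of all genes. Its difference was 0.17 (SE 0.0348, adjusted p = 0.834). DESeq2 called 0 of the 10 genes in both comparisons, beside 0.612% of all genes between NE and NW and 0.0131% between NE and Water-Ethanol.

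Over all 16 mice, the effect of ethanol averaged over both nicotine levels was -0.11 for Tnr (SE 0.0290, adjusted p = 0.0385). Tnr was the only 1 of the 10 genes to pass, beside 4.50% of 15592 genes. Its difference was -0.22 without nicotine (Water-Ethanol against WW) and 0.00 with nicotine (NE against NW), so the average need not hold at each nicotine level. Hapln1 was at -0.17 (SE 0.0497, adjusted p = 0.0526) and Tnc at -0.31 (SE 0.126, adjusted p = 0.153). Without WW 21 and NW 10, Tnr (-0.09, adjusted p = 0.0445) and Tnc (-0.42, adjusted p = 0.0324) both passed, beside 6.77% of all genes. With DESeq2, Hapln1 and Tnr passed, beside 7.01%. Both also passed with the GC correction, Hapln1 at -0.17 (adjusted p = 0.0360) and Tnr at -0.11 (adjusted p = 0.0360) in edgeR's test, beside 5.54%. Leaving out NW 7 added Hapln1 (5.34% of all genes), leaving out WW 18 or NE 5 gave Hapln1 in place of Tnr (4.42% and 4.00%), and leaving out WW 19, NW 8, NE 2, NE 4 or any Water-Ethanol mouse gave 0 (1.78% to 4.79%). With the region scores in the fit, Tnr no longer passed (-0.10, adjusted p = 0.0809) and Tnc did (-0.37, adjusted p = 0.0409). The higher ethanol intake reported for NE mice enters the effects of ethanol and nicotine and the interaction. The effect of nicotine called 0 of the 10 genes and 0% of all genes. At an unadjusted p under 0.05 stood 2 of the 10, Spock3 and Hapln1, beside 10.3% of all genes. Spock3 was at -0.21 (SE 0.0400, adjusted p = 0.168) and Hapln1 at -0.17 (SE 0.0497, adjusted p = 0.248). DESeq2 (0.667% of all genes) and the likelihood-ratio test (0.346%) each called Spock3 for the nicotine effect, as did the quasi-likelihood test without NW 11 (0.312%) or without NE 2 (0.0894%).

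The interaction asks whether NE differs from the sum of both drug effects. It called 0 of the 10 genes and 0% of all genes in edgeR's test and 0 of the 10 with DESeq2, beside 0.0128% of all genes. An unadjusted p under 0.05 was reached by 3 of the 10 genes, beside 6.76% of all genes. They were Spock3 at 0.30 (SE 0.0800, adjusted p = 0.606), Hapln1 at 0.27 (SE 0.0995, adjusted p = 0.678) and Tnr at 0.23 (SE 0.0580, adjusted p = 0.577). The effects of the drugs alone and together were thus not shown to differ from additivity.

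With group means removed, so that only differences between mice of a group remain, the neighbours Hapln4 and Ncan moved in opposite directions over 16 mice. Pearson's r of log2 CPM was -0.677 (permutation p = 0.00415, adjusted p = 0.0166 over 4 pairs) and Spearman's rho was -0.574 (permutation p = 0.0230, adjusted p = 0.0921). The permutations ran across groups and took no account of the means removed, so the p-values of these pairs may be too small. Without WW 21 and NW 10, the mice farthest from the median of Hapln4, r kept its sign at -0.439 (permutation p = 0.117, 14 mice). The relation thus rests in part on those mice and was not detectable in the others alone. The group means removed there still included those mice. For Hapln2 and Bcan r was 0.457 (permutation p = 0.0749, adjusted p = 0.150) and rho was 0.462 (permutation p = 0.0742, adjusted p = 0.148). Hapln1 and Vcan gave r = -0.0705 (permutation p = 0.798) and Hapln3 and Acan r = 0.0698 (permutation p = 0.798). Being neighbours thus went with no common direction in these pairs.

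**Figure D5:**
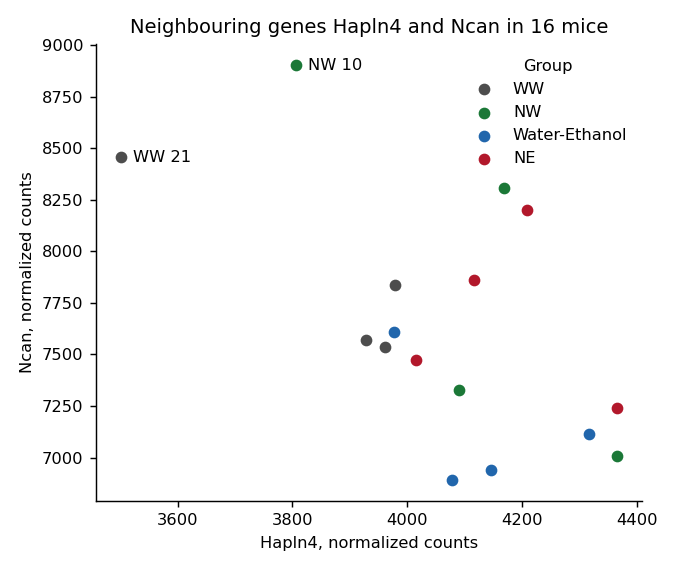
Normalized counts of Ncan against those of Hapln4, with a point per mouse, coloured by group, on axes that do not start at 0. WW 21 (Hapln4 at 3501) and NW 10 (3806) lie at the upper left, apart from the other 14 mice.

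Over the 16 mice, the 3 genes most like each of the 10 in log2 CPM were in no case another of the 10. With 15592 genes to choose from, this was likely in any case and does not show whether the 10 vary together. The likeness is Pearson's r, which shares library scaling and depth between genes and includes differences between groups. With group means removed it fell for some pairs, such as Tnr with Sorcs3 (0.683), and rose for others, such as Bcan with Cdk10 (0.946). Spock3 was most like Ppig (r = 0.972), Fam103a1 (0.966) and Tmem30a (0.963). Hapln1 was most like Shroom2 (0.919), Dbt (0.894) and Csnk2a1 (0.893), and Hapln4 was most like Sptb (0.924), Gpd1 (0.912) and Cerk (0.881). Tnr was most like Sorcs3 (0.854), Was (0.828) and Tmem178b (0.821). Tnc was most like Prox1 (0.891), A230001M10Rik (0.886) and Nid1 (0.885), and Ptprz1 was most like Sema5a (0.892), Cltc (0.864) and Cntnap2 (0.858).

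The lecticans had Cdk10 (0.918), Acaa1a (0.900) and Dnm2 (0.898) as the genes most like Bcan. For Ncan they were Sytl2 (0.877), Sorcs2 (0.852) and Sez6 (0.841), for Acan Pde3a (0.872), Cntnap4 (0.835) and Fgf7 (0.823), and for Vcan Notch1 (0.841), Itpr2 (0.769) and Ptgs1 (0.768). Among the 10 genes themselves and with group means removed, r ran from 0.707 for Tnc with Ptprz1 to -0.723 for Bcan with Spock3.

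Of 78 other matrix genes listed, 77 were in the table and 75 passed the filter over all mice. They were hyaluronan enzymes and receptors, further link proteins, proteoglycans, glycoproteins, chondroitin sulfate enzymes and receptors, proteases and protease inhibitors. In the 5 comparisons of groups, 0 of them passed edgeR's test. At an unadjusted p under 0.05, 5 were lower and 2 higher in NW against WW, 9.33% of those tested beside 8.44% of all genes. In Water-Ethanol 9 were lower and 2 higher, 14.7% beside 19.3%, and in NE 6 were lower and 7 higher, 17.6% beside 17.5%. These shares lay near or below those of all genes. The link proteins outside the nets' core set, Hapln2 of myelinated axons and Hapln3, did not pass, with Hapln3 at -0.63 in Water-Ethanol (SE 0.293, adjusted p = 0.263) on 8 to 28 normalized counts per mouse. In the ethanol effect over all mice 3 of 75 passed, all lower, which is near the 4.50% of all genes that did. They were Thbs4, a thrombospondin (-0.33, adjusted p = 0.0227), B3galt6, an enzyme that builds the linker of chondroitin sulfate chains (-0.19, adjusted p = 0.0449), and Cspg5, the proteoglycan neuroglycan C (-0.14, adjusted p = 0.0488). The median difference of the 75 genes in that effect was -0.02, beside 0.00 for all genes.

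Marker lists of the cells that make these proteins were set beside the results, and no marker of any list was at 0 in all mice. The summed FPKM of 7 astrocyte genes ran from 813 to 876 in WW, 777 to 860 in NW, 780 to 804 in Water-Ethanol mice and 772 to 814 in NE. For 5 oligodendrocyte genes the sums were 2722 to 3191 in WW, 2777 to 3251 in NW, 2530 to 2964 in Water-Ethanol and 2707 to 3056 in NE. All 5 of these genes were below 0 in Water-Ethanol and in NE against WW, with medians of -0.14 and -0.10, and 0 of them passed the test. Such a direction was not particular to this list. In Water-Ethanol against WW all 4 microglia genes (median -0.23) and all 5 of meningeal fibroblasts (-0.39) were below 0. So were 6 of 7 astrocyte genes (-0.07), while all 6 cerebellar genes were above 0 (0.25). The 6 genes of parvalbumin interneurons summed to 346 to 465 FPKM in WW, 365 to 462 in NW, 448 to 462 in Water-Ethanol and 433 to 446 in NE, with WW 21 and NW 10 the lowest of their groups. For 5 genes of meningeal fibroblasts they were 37.6 to 58.1 in WW, 36.7 to 40.0 in NW, 30.4 to 42.5 in Water-Ethanol and 33.7 to 35.3 in NE. No gene of any marker list passed in the 3 comparisons with WW. In the ethanol effect over all mice, where 4.50% of all genes passed, so did 1 of 7 astrocyte genes (Aldh1l1, lower), 1 of 4 microglia genes (Cx3cr1, lower) and 1 of 6 parvalbumin genes (Kcnc1, higher). The parvalbumin list was split, with 3 genes below 0 and 3 above. The part of these cells in the lower Tnr, Hapln1 and Spock3 was not tested.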

How the data were processed

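Trimmed reads (Trimmomatic 0.32) were aligned by the authors with TopHat2 to GRCm38, and raw read counts per gene were deposited, with the counting program and its use of strand not given in the sources used here. The authors also deposited FPKM values from the Cufflinks tools, scaled for transcript length and library size. Groups came from the labels, and mouse numbers from the sample titles.

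Counts were tested with R 4.3.3 and edgeR 4.0.16, using TMM normalization, the default filter, the quasi-likelihood test and Benjamini-Hochberg adjustment over all genes at a threshold of 0.05. The study tested pairs of groups with Cuffdiff2, which needs reads. Each comparison was fitted on its own 8 mice, and the ethanol, nicotine and interaction terms on all 16. Standard errors are the absolute log2 fold change divided by the root of F. Depth was 27100352 to 32880979 counts per mouse. Alternatives used RLE factors, DESeq2 1.42.0, the likelihood-ratio test, other filters, and limma 3.58.1 on log2 FPKM with a pseudocount of 1 or 0.1. Others used all 16 mice, all 16 mice with region marker scores as covariates, a GC correction and each mouse left out in turn. Leaving out WW 21 and NW 10 together was added after the data were seen. The tests were run on simulated counts with a fixed dispersion. How well they recover changes as small as those reported here is not given. Python 3.11.15, scipy 1.17.1 and matplotlib 3.10.9 gave the correlations (100000 permutations) and plots.

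The 10 genes, the lists of other matrix genes and of markers, and the rule for named genes were chosen with earlier results of these data known. The rule names all 10 genes, the neighbours Hapln2 and Hapln3, each other matrix gene that passed a test, and the 3 genes most correlated with each of the 10. Reads were not analysed again, and protein sequences were not used here.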

Additional observations from a re-analysis of the deposited data

Results flagged for a closer look

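The level of Hapln4 in WW 21 stood apart from the other WW mice, at 3501 normalized counts where the other 3 ran from 3928 to 3979. Over the 10 genes, 40 groups of 4 mice were examined in this way and this was the 1 value that stood apart, where chance alone would mark about 1 group in 20. WW 21 was also low in cerebellar markers, with Gabra6 at 1070 normalized counts, and the part of this in the low Hapln4 was not tested. Without WW 21 the difference of Hapln4 from WW was 0.08 in NE and 0.06 in both NW and Water-Ethanol mice.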

How the results depend on the processing

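Of the 10 genes, the number that passed changed as follows, with the percentage of all genes that passed in brackets. In NW against WW, where 0 passed, DESeq2 (0.802%), the likelihood-ratio test (0.736%) and the fit of all 16 mice (0.718%) each gave 2. The region scores gave 1 (0.924%), while leaving out each mouse in turn gave 0 (0%). In Water-Ethanol against WW, where 2 passed, DESeq2 (3.94%), the likelihood-ratio test (4.05%) and no filter (0.719%) gave 3, with Spock3 added. The 3 limma fits (0%) and the region scores (0.0577%) gave 0. The fit of all mice (0.180%) and the GC correction (0.255%) gave 1, Tnr. Leaving out each mouse gave 0 to 4, the highest without WW 21 (5.17%). Tnr and Hapln1 passed in 2 of these 8 fits, those without WW 18 or WW 21. In NE against WW, where 1 passed, DESeq2 (3.38%), the likelihood-ratio test (2.45%) and no filter (0.266%) gave 2. The 3 limma fits (0.00505% to 0.195%), the region scores (0.154%) and the GC correction (0.0588%) gave 0. Leaving out each mouse gave 0 to 2 (0% to 1.84%), with Spock3 passing only without WW 21. For the ethanol effect, where 1 passed, DESeq2 (7.01%), the likelihood-ratio test (6.71%), the filter of 1 CPM (5.41%) and the GC correction (5.54%) gave 2. Leaving out WW 21 and NW 10 together (6.77%) also gave 2, and leaving out each mouse gave 0 to 2 (1.78% to 5.73%). For the nicotine effect, where 0 passed, DESeq2 (0.667%) and the likelihood-ratio test (0.346%) gave 1, and leaving out each mouse gave 0 to 1 (0% to 0.312%). The cause of these changes was not tested. No alternative changed the count of 0 in NE against NW, NE against Water-Ethanol or the interaction (0% to 1.19%). Of 1770 values of single genes under alternatives, 1763 lay within 1 SD between mice of the reported value and 7 moved further.

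With 4 mice a group, calls near the threshold depended on single mice. The lowest raw count behind any value of the 10 genes was 194, for Tnc. No paired analysis was possible because the groups share no mouse numbers. The numbers run in blocks by group, so any handling in that order cannot be told apart from the treatment.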
